A study of Bos taurus with 12 samples.

Results

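Cumulus cells that surrounded bovine oocytes at stage GV3 were compared with cumulus cells that surrounded oocytes at stage GV0. The comparison consists of the 4 arrays of a series of 12 that carried GV3 RNA. On each, GV3 RNA was labelled with the red dye Cy5 and GV0 RNA with the green dye Cy3, so that every value is a ratio of GV3 over GV0. The remaining arrays carried GV1 or GV2 RNA, 4 arrays each, against GV0 RNA in the same dye. All cells came from ovaries of slaughtered cattle. Each complex of oocyte and cumulus cells was taken apart on its own, the oocyte was stained with the DNA dye Hoechst and staged, and the cumulus cells of 10 complexes of 1 stage were pooled for RNA. The RNA of each pool was amplified by transcription over successive rounds before it was labelled, so the signals are those of amplified RNA. Whether different pools held cells of different animals is not stated, and the p-values below therefore measure the spread between pools. The labels give no age, breed, cycle phase or follicle size for the animals. All 4 GV3 arrays, and no others, were on slide 223, so slide and stage cannot be told apart. GV0 RNA was in Cy3 on every array, so a probe's dye preference remains in each ratio to GV0.

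Cumulus cells are specialised granulosa cells that feed the oocyte through gap junctions and answer to the factors it secretes. The germinal vesicle is the nucleus of the immature oocyte. At GV0 its chromatin is spread through the nucleus and transcription is active. At GV3 the chromatin is gathered in a clump and transcription has largely stopped, a state found in fully grown oocytes. The stage was read in the oocyte, while the RNA measured here was that of the surrounding somatic cells. The question of the comparison is which transcripts of cumulus cells differ between the ends of this series.

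Across the array, more genes were lower in GV3 than higher. Of 13418 genes, each represented by its brightest probe, 1495 (11.1%) differed from GV0 at an adjusted p under 0.05 in limma, 585 of them higher (4.36%) and 910 lower (6.78%). At least a 2-fold difference was found in 159 of these genes, 65 higher and 94 lower. The median change of the genes that passed was 0.49 on the log2 scale, and 1469 of the 1495 had the same sign on all 4 arrays. Over all genes the median log2 ratio was -0.01, the median standard error (SE) was 0.14, and 17.8% of genes were lower on all 4 arrays against 14.7% that were higher on all of them. Counted by probes, 4412 of 35891 (12.3%) passed, among them 2222 probes without a gene symbol. For 956 of the genes that passed, 396 higher and 560 lower, both dyes exceeded the negative control spots and the sign was the same on all 4 arrays. The remainder include 67 genes with no GV0 signal above these controls on any array, 95 with no GV3 signal above them and 12 with neither.

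The spread between pools sets the precision of these counts. The 4 GV3 arrays correlated with each other at r between 0.119 (arrays 1 and 3) and 0.538 (arrays 3 and 4) over the log2 ratios of all probes. Their median spot signal was 191 to 230 in the GV3 dye and 284 to 346 in the GV0 dye, and between 59.9% and 79.9% of probes exceeded the negative controls in Cy5. The limma model took its error from all 12 arrays. On the 4 GV3 arrays alone, 0 genes passed, although 8574 probes had an unadjusted p under 0.05. The array area, used as a replicate block, pairs arrays taken from their Cy3 signals to share a GV0 pool. With that block 4172 genes passed, 1995 higher (14.9%) and 2177 lower (16.2%). All 1495 genes were among them with the same sign. The fixed block, here and below, leaves differences between areas out of the error. Its counts therefore do not cover the full spread between pools. With that block as a random effect, at its estimated correlation, 1494 genes passed, 1256 of the 1495 among them. Without array 1, 2, 3 or 4 of GV3 the count was 924, 804, 870 and 661 genes, and 490 genes passed whichever array was left out. Of the 114 genes named by rule that passed, 36 had other probes past the filter. At least 1 other probe passed in the same direction in 12 of them and none did in 24. The 24 were ADM, B2M, CD36, CD99, CDK4, DNAJB1, ERG, FADD, FOS, GPX3, INSIG2, NDUFA8, NDUFS3, PDHA1, PGRMC1, PLA2G7, RGS2, SESN2, SHMT2, SLC38A2, STIP1, TXNRD1, USP18 and WT1. Their calls rest on 1 probe each. So do the calls of all genes outside the 36, which had no other probe past the filter.

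**Figure D1:**
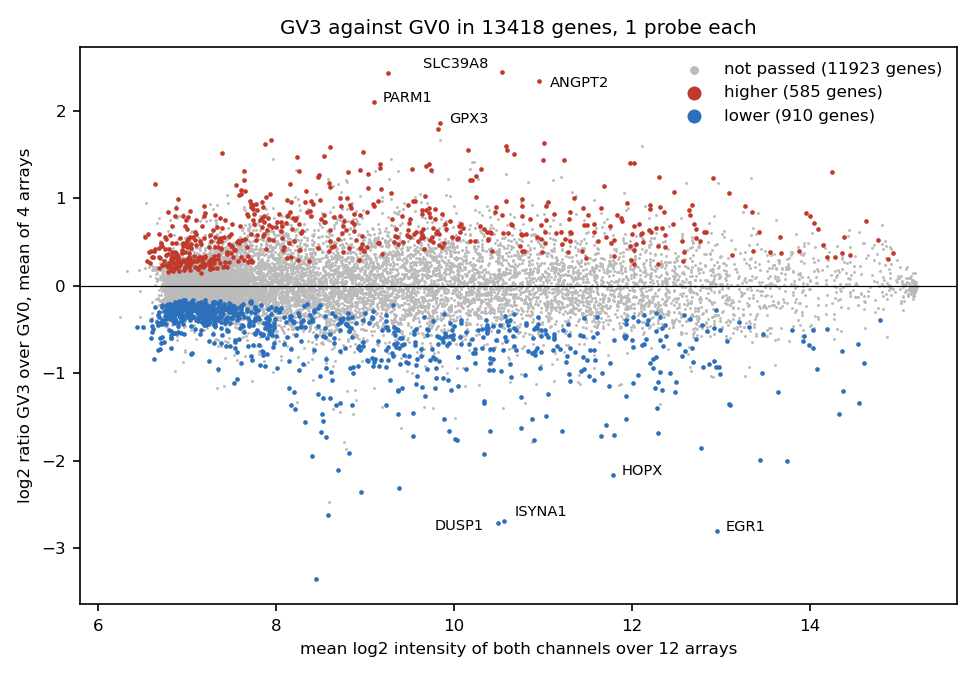
Log2 ratio of GV3 over GV0 (vertical axis, mean of 4 arrays) against the mean log2 intensity of both channels (horizontal axis) for 13418 genes. Red points are the 585 genes higher in GV3, blue points the 910 genes lower, and grey points did not pass. Genes that fell reach farther from 0 than most of those that rose.

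The largest decreases with full signal in both dyes were in genes of the immediate early response, in inositol synthesis and in epithelial and secreted proteins. EGR1, a zinc finger transcription factor induced within minutes of growth factor or hormone signals, had log2 ratios of -3.60, -2.88, -2.10 and -2.63 on arrays 1 to 4. DUSP1, the phosphatase that switches off MAP kinases, read -1.85, -2.75, -3.45 and -2.82. Every array was far below 0 in both genes, and the means were -2.80 for EGR1 (SE 0.39, n = 4, adjusted p = 0.00191) and -2.72 for DUSP1 (SE 0.37, adjusted p = 0.00185). In a pool of cells, fewer cells of a type and less RNA per cell cannot be told apart, here and in each result below. ISYNA1, which catalyses the first step of inositol synthesis, read -2.22, -3.12, -2.25 and -3.14 (mean -2.68, SE 0.38). ANGPTL6, a secreted angiopoietin-like protein, read -2.05, -3.46, -2.06 and -2.89 (mean -2.62, SE 0.34). In both genes arrays 2 and 4 were lower than arrays 1 and 3. HOPX, a homeodomain protein that does not bind DNA, read -3.0, -1.58, -1.85 and -2.24 (mean -2.17, SE 0.32). PLAC9, a small secreted protein, had one of the tightest sets of values, at -1.5, -2.32, -2.02 and -2.18 (mean -2.01, SE 0.16, adjusted p = 0.00012).

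Further large decreases were found in WFDC2, a secreted protein of the whey acidic protein family, with -2.38, -1.62, -1.97 and -1.81 (mean -1.95, SE 0.20), and in KRT8, an epithelial keratin, with -2.31, -2.85, -1.19 and -1.60 (mean -1.99, SE 0.42). CD99, a membrane glycoprotein of cell adhesion, had a mean of -2.11 (SE 0.46), PHLDB1, which links microtubules to adhesion sites, -1.93 (SE 0.36), and CLSTN3, a transmembrane calsyntenin, -1.75 (SE 0.27). MGC133636, a gene with no further annotation here, had -2.36 (SE 0.35). ID3, an inhibitor of basic helix-loop-helix factors and a target of BMP signals, read -2.58, -1.99, -1.55 and -1.27 (mean -1.85, SE 0.36). Its 4 other probes, with means from -1.21 to -0.55, passed in the same direction. GSTA1, a glutathione transferase of steroidogenic cells, had -1.77 (SE 0.50) and ZFP36, which directs the decay of AU-rich messages, -1.76 (SE 0.33). The call of GSTA1 was lost without any 1 of the 4 GV3 arrays (adjusted p up to 0.144), that of KRT8 without array 2 (adjusted p = 0.0616) and that of CD99 without array 2 or array 4 (up to 0.0788). The other 12 of the 15 largest decreases passed without each GV3 array.

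Among the genes that rose, the largest increases were in a metal transporter, in vascular and secreted factors and in membrane proteins. SLC39A8, an importer of zinc and manganese, read 2.05, 0.74, 2.64 and 4.34, a mean of 2.44 (SE 0.67, adjusted p = 0.0374) with array 4 highest and array 2 lowest. ANGPT2, an angiopoietin that loosens vessels through the TIE2 receptor, read 2.64, 2.52, 2.08 and 2.14 (mean 2.35, SE 0.30, adjusted p = 0.00132). PARM1, a mucin-like membrane protein, read 1.84, 2.06, 2.53 and 1.99 (mean 2.11, SE 0.30). The arrays of ANGPT2 and PARM1 lay close together, while those of SLC39A8 were spread widely. GPX3, a secreted glutathione peroxidase, read 1.48, 1.21, 1.82 and 2.93 (mean 1.86, SE 0.38). PLA2G7, which inactivates platelet-activating factor, read 0.27, 1.77, 2.29 and 2.84 (mean 1.79, SE 0.48). Array 4 was the highest and array 1 or 2 the lowest in both.

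GFRA1, a coreceptor of the neurotrophic factor GDNF, had a mean of 1.63 (SE 0.31), LHX2, a LIM homeobox transcription factor, 1.59 (SE 0.29), and TMEM37, a protein related to calcium channel subunits, 1.56 (SE 0.33). NEDD9, a scaffold of focal adhesions, had 1.55 (SE 0.23), CADPS2, a priming factor for secretory vesicles, 1.53 (SE 0.20), and PRKAG2, a regulatory subunit of AMP-activated kinase, 1.47 (SE 0.27). YEATS4, a reader of acylated histones, read 1.52, 1.11, 1.64 and 1.77 (mean 1.51, SE 0.16, adjusted p = 0.000574). LOC786299, not annotated further here, had 1.48 (SE 0.27). Left out in turn, array 4 ended the call of GPX3 (adjusted p = 0.0628), arrays 3 and 4 each that of TMEM37 (up to 0.0698) and arrays 1, 3 and 4 each that of SLC39A8 (up to 0.165). The calls of PLA2G7 (up to 0.152) and BAG3 (up to 0.11) were lost without array 2, 3 or 4. The other 10 of the 15 largest increases passed without each GV3 array.

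**Figure D2:**
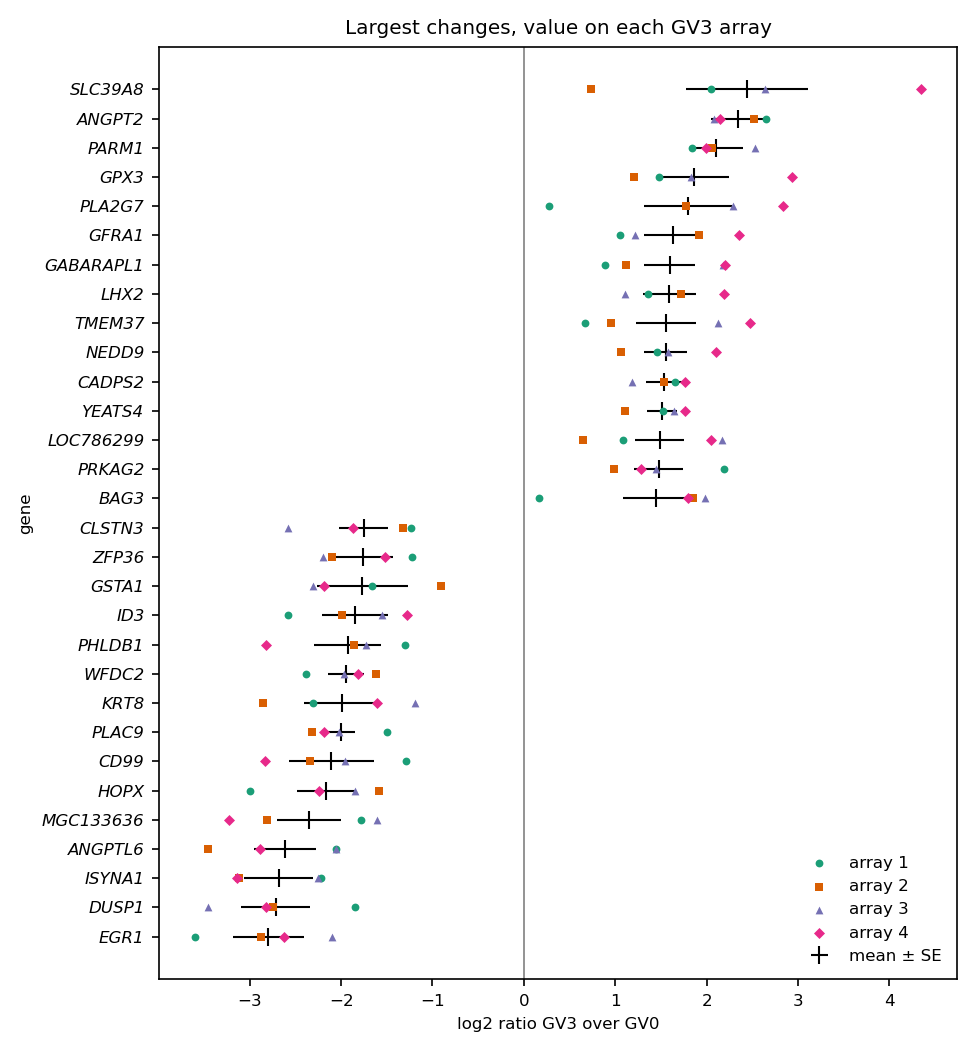
Log2 ratio of GV3 over GV0 (horizontal axis) for the 15 genes that rose most and the 15 that fell most, 1 row a gene. Coloured marks are the 4 arrays, and the black mark and bar are the mean and SE. Every array is on the same side of 0 for these genes, with SLC39A8 and PLA2G7 spread widest among those that rose.

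For genes whose signal in 1 dye did not exceed the negative controls on any array, only a bound can be given. ELK4, an ETS factor that acts with serum response factor, was at least 2.21-fold higher in GV3, where 3 of 4 arrays measured it (adjusted p = 0.0236). LOC510362 was at least 1.86-fold higher and SCARF1, a scavenger receptor, at least 1.79-fold. In the other direction IGF2BP1, an RNA-binding protein of growing cells, was at least 1.70-fold lower, GGT5, a glutamyl transferase, at least 1.68-fold and LRP4, a receptor of the LDL receptor family, at least 1.61-fold (adjusted p = 4.43e-05). The call of ELK4 was lost without array 1, 2 or 3 (adjusted p up to 0.0959), and the other 5 passed without each array.

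Cell cycle genes were lower in GV3. Of 50 measured genes of the cell cycle and DNA replication, 0 rose, 18 fell (36.0%, against 6.78% of all genes) and 32 did not pass. The median of the 50 was -0.49, against -0.01 over all genes. By array the medians were -0.65, -0.23, -0.60 and -0.41, so array 2 was nearest to 0. All 18 had both dyes above background on 4 arrays, 26 of the 50 were lower on each array, against 17.8% of all genes, and 0 were higher on each.

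Of the 18 genes that fell, 12 act in mitosis. The median of the 24 measured mitosis genes was -0.76, and by array it was -0.96, -0.22, -1.01 and -0.56. AURKB, the kinase that corrects chromosome attachment, read -0.94, -0.96, -1.34 and -1.33 (mean -1.15, SE 0.10, adjusted p = 0.000177). Its other probes were nearer to 0, at -0.47 (adjusted p = 0.00225) and -0.13 (adjusted p = 0.265). CDC20, the activator of the anaphase-promoting complex, read -1.17, -0.70, -1.07 and -0.90 (mean -0.96, SE 0.09). In both genes all 4 arrays lay close together and below 0. BUB1B, a checkpoint kinase that restrains CDC20, read -1.55, -0.58, -1.44 and -0.99 (mean -1.14, SE 0.19). The spindle bundling proteins NUSAP1 (-1.17, SE 0.22) and PRC1 (-0.93, SE 0.16) fell, as did the mitotic cyclins CCNB2 (-1.08, SE 0.18), CCNB1 (-1.0, SE 0.22) and CCNA2 (-0.95, SE 0.22). BUB1 (-1.09, SE 0.23), a checkpoint kinase, KIF20A (-0.88, SE 0.22) and CENPE (-0.76, SE 0.18), mitotic kinesins, and AURKA (-0.61, SE 0.18), the centrosome kinase, fell too. The proliferation marker MKI67 (-0.16, SE 0.11), the topoisomerase TOP2A (-0.25, SE 0.19), CDK1 (-0.43, SE 0.23) and PLK1 (0.05, SE 0.36) did not pass.

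Of 14 genes of DNA replication 5 fell, with a median of -0.55. By array the median was -0.65, -0.36, -0.60 and -0.61, which is lower than that of the mitosis genes on arrays 2 and 4, and the difference between the roles was not tested. RRM1 and RRM2 encode the subunits of ribonucleotide reductase, which supplies deoxynucleotides. RRM1 read -0.73, -0.43, -0.73 and -0.60 (mean -0.62, SE 0.07), and RRM2 -0.85, -1.35, -2.88 and -1.0 (mean -1.52, SE 0.38). PCNA, the sliding clamp of polymerases, had a mean of -0.63 (SE 0.17), the helicase subunit MCM3 -0.67 (SE 0.13) and the loading factor CDC6 -0.72 (SE 0.19). Among 12 genes of G1 control, 1 fell: CDK4, the kinase that pairs with D-type cyclins, at -0.51 (SE 0.08). The cell cycle inhibitors CDKN1A (0.41, SE 0.32) and CDKN1B (0.18, SE 0.12) did not pass.

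The count of cell cycle genes that fell varied with the libraries used. It was 11, 16, 10 and 13 without array 1, 2, 3 or 4 of GV3, 11 with the median pixel signal of each spot, 32 with the fixed replicate block, 19 with the random block and 0 on the 4 GV3 arrays alone, where 24 had an unadjusted p under 0.05. The median stayed between -0.54 and -0.37 under all alternatives. Of all genes 16.2% fell with the fixed replicate block. AURKB, CDC20, BUB1B, CCNB2, NUSAP1, PRC1, MCM3, RRM1 and CDK4 passed without each GV3 array. The other 9 were lost without at least 1 of them. Array 1 and array 3 each ended the calls of AURKA, BUB1, CCNA2, CCNB1, CDC6, CENPE and PCNA, with adjusted p of at most 0.172 over the arrays. Arrays 3 and 4 each ended those of KIF20A (up to 0.127) and RRM2 (up to 0.105), the latter also lost without array 2.

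**Figure D3:**
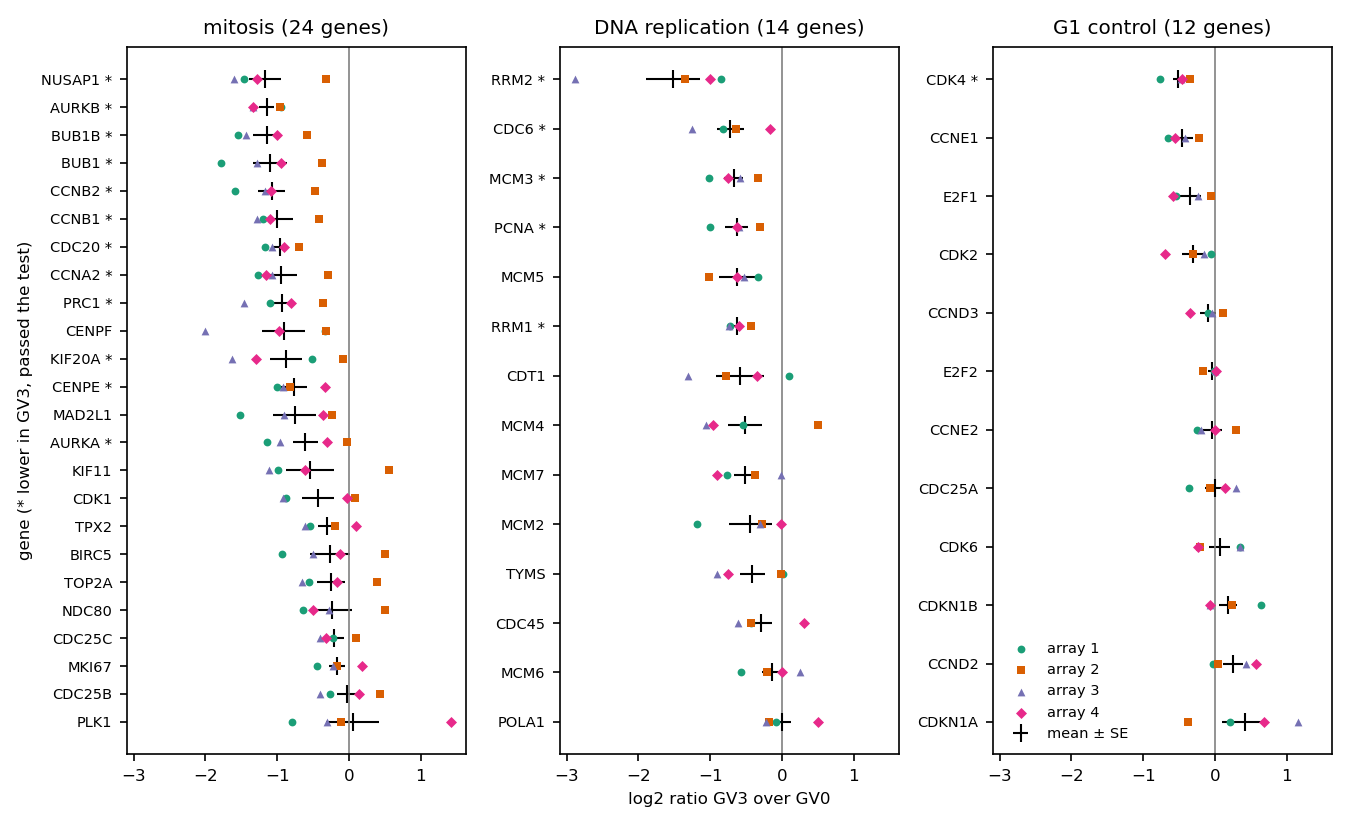
Log2 ratio of GV3 over GV0 (horizontal axis) for 50 cell cycle genes in 3 groups by role: mitosis, DNA replication and G1 control. Coloured marks are the 4 arrays, black marks and bars the mean and SE, and asterisks the 18 genes that passed. Most mitosis genes lie left of 0, with array 2 nearest to 0 in many rows.

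Immediate early genes, the first to be transcribed when growth factors or hormones reach a cell, fell more often than they rose. Of 34 measured genes of this response and of MAP kinase feedback, 8 fell (23.5%) and 2 rose (5.88%), against 6.78% and 4.36% of all genes. The median was -0.24. Beside EGR1, DUSP1 and ZFP36, described above, FOS read -1.51, -1.45, -1.27 and -1.62 (mean -1.46, SE 0.26, adjusted p = 0.00574). Its 4 arrays lay close together. FOSB, its relative in the AP-1 complex, read -1.36, -1.40, -1.5 and -1.16 (mean -1.36, SE 0.30), and the orphan nuclear receptor NR4A1 read -2.38, -1.42, -0.71 and -0.84 (mean -1.34, SE 0.37). IER2 had a mean of -0.99 (SE 0.20). SRF, the factor that drives many of these promoters, had -0.38 (SE 0.09). JUN, the AP-1 partner of FOS, had -1.39 (SE 0.48) and did not pass (adjusted p = 0.084), nor did JUNB (-0.81, SE 0.50), MYC (-0.45, SE 0.23) or ATF3 (-0.22, SE 0.43).

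Feedback inhibitors of MAP kinase signalling did not share one direction. SPRY2, an inhibitor of receptor tyrosine kinase signals, rose, with 2.02, 1.84, 1.07 and 0.64 (mean 1.39, SE 0.28, adjusted p = 0.011). DUSP6, a phosphatase of ERK, read 0.15, 0.49, 0.86 and 1.31 (mean 0.70, SE 0.17). DUSP1, as given above, fell. CCN2, a matricellular growth factor and target of YAP, had 1.60 (SE 0.48) and just missed the threshold (adjusted p = 0.052). Without array 1, 2, 3 or 4 of GV3, 5, 5, 6 and 6 genes of the list fell. The calls of FOSB (adjusted p up to 0.0587) and NR4A1 (up to 0.152) were lost without any 1 array, those of SRF (up to 0.0821) and SPRY2 (up to 0.0544) without array 1 or 2, and that of DUSP6 without array 3 or 4 (up to 0.0951). EGR1, DUSP1, ZFP36, FOS and IER2 passed without each. With the fixed replicate block 15 fell and 6 rose, where 16.2% of all genes fell and 14.9% rose. With the random block 7 fell and 3 rose, and with median spot signals 5 fell and 2 rose.

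The Cy3 signals point to the same GV0 pools on the 3 slides, which no label states. The ratios of GV1 and GV2 are therefore given beside those of GV3 as values only. EGR1 was -1.61 in GV1, -2.35 in GV2 and -2.80 in GV3. DUSP1 was -0.78, -1.25 and -2.72 in the same order, ZFP36 -0.42, -0.83 and -1.76, and FOS -0.36, -1.02 and -1.46. AURKB was -0.54, -0.57 and -1.15, and BUB1B -0.53, -0.53 and -1.14. In these 6 genes, which were picked for their GV3 values, the GV3 value was the lowest of the 3. By contrast, PLAC9 (-2.04, -1.94 and -2.01) and ISYNA1 (-2.73, -2.92 and -2.68) were at like levels in all 3 stages. The genes that rose most in GV3 were also above 0 in GV1 and GV2. In the same order, SLC39A8 was 1.93, 1.98 and 2.44, ANGPT2 2.001, 1.898 and 2.346, and PARM1 2.15, 1.74 and 2.11. GPX3 was 1.64, 1.92 and 1.86, and PLA2G7 1.43, 1.60 and 1.79. PARM1 was highest in GV1 and GPX3 in GV2, while SLC39A8, ANGPT2 and PLA2G7 were highest in GV3. Subtracting stages removes GV0 and the dye. No probe of 35891 passed in GV3 minus GV1 or in GV3 minus GV2 (limma, lowest adjusted p = 1 for each), while 678 and 1090 probes had an unadjusted p under 0.05. That fit ignores the pairing of arrays by area, so the spread of GV0 pools taken as shared stays in its error. With the fixed replicate block, 2810 and 3797 probes had an unadjusted p under 0.05, and 0 passed. DUSP1, with one of the larger differences, was at -1.94 (SE 0.53) against GV1 and -1.47 (SE 0.53) against GV2. The values of the cell cycle genes in GV3 are therefore not shown to differ from those in GV1 or GV2.

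**Figure D4:**
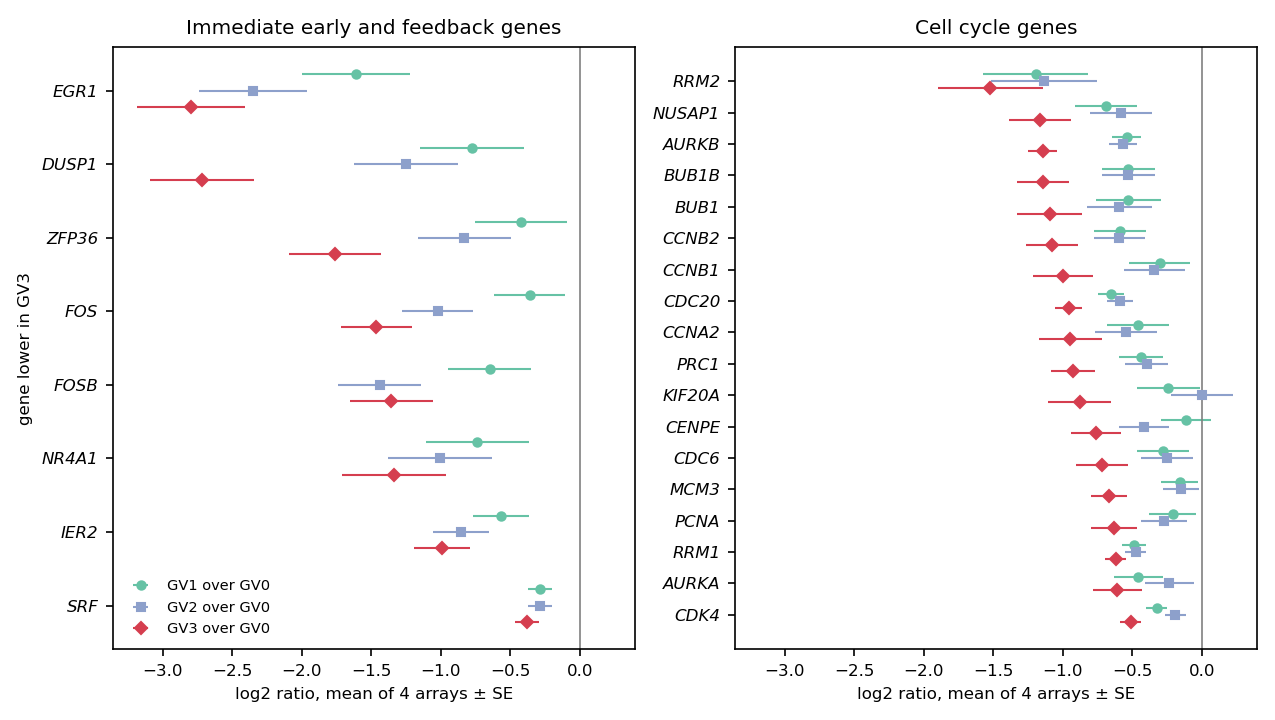
Log2 ratio over GV0 (horizontal axis, mean of 4 arrays with SE) in GV1, GV2 and GV3 for the 8 immediate early genes and the 18 cell cycle genes that fell in GV3. The genes were chosen by their GV3 value, which favours that stage being the lowest. The GV3 mark lies farthest left in each row but that of FOSB, and 0 of these genes passed in the differences between stages.

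Among 28 heat shock proteins and co-chaperones 2 fell (7.14%) and 1 rose (3.57%), near the 6.78% and 4.36% of all genes, and the median was 0.11. With arrays centred on their median in place of loess, 1 fell and 6 rose (median 0.45). DNAJB1, the main partner of cytosolic HSP70, read -1.64, -1.29, -0.91 and -2.09 (mean -1.49, SE 0.26). BAG3, which releases clients from HSP70 for autophagy, read 0.16, 1.85, 1.98 and 1.79 (mean 1.45, SE 0.37), so that array 1 lay apart from the others, and its call was lost without array 2, 3 or 4, as given above. STIP1, an adaptor between HSP70 and HSP90, had a mean of -0.63 (SE 0.18), and its call was lost without array 1, 2 or 4 (adjusted p up to 0.179). The inducible HSP70 gene HSPA1A, at 0.34, 3.02, 0.89 and 1.40, did not pass (mean 1.41, SE 0.73).

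In the unfolded protein and amino acid response, 5 of 26 genes fell (19.2%) and 1 rose (3.85%). The shares of all genes were 6.78% and 4.36%, and the list median was -0.07. SHMT2, a mitochondrial enzyme of serine and folate metabolism, read -0.88, -0.45, -0.81 and -0.81 (mean -0.74, SE 0.08, adjusted p = 0.000667). Its 3 other probes were at -0.27, -0.02 and -0.09, and 0 of them passed (adjusted p from 0.237 to 0.864). PSAT1, which acts in serine synthesis, read -0.08, -1.62, -2.13 and -2.81 (mean -1.66, SE 0.48), with array 1 near 0. DDIT4, an inhibitor of mTORC1, had -1.52 (SE 0.40) and SESN2, a leucine sensor, -0.25 (SE 0.05). SDF2L1, an endoplasmic reticulum protein, had -0.94 (SE 0.26), with GV3 above background on 2 arrays. SLC38A2, an amino acid transporter, rose by 0.72 (SE 0.14). Without a GV3 array 2 to 3 genes fell, and with median spot signals 2 fell and 0 rose. The calls of DDIT4 (adjusted p up to 0.128) were lost without array 1, 3 or 4, those of SDF2L1 (up to 0.154) without array 1, 2 or 4, and those of PSAT1 (up to 0.19) without array 2, 3 or 4.

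Antioxidant and glutathione genes were lower more often than higher. Of 36 measured, 10 fell (27.8%) and 2 rose (5.56%), against 6.78% and 4.36% of all genes, with a median of -0.09. The thioredoxin system contributed TXNRD1, the cytosolic reductase, at -0.40, -0.99, -0.96 and -0.64 (mean -0.75, SE 0.11). TXNRD2 (-0.32, SE 0.06) and TXN2 (-0.58, SE 0.11), its mitochondrial counterparts, fell as well, and so did TXNIP, an inhibitor of thioredoxin that is not itself an antioxidant, at -1.72 (SE 0.38). The other probes of TXN2 lay between -0.45 and 0.11, and only the lowest of them passed (adjusted p = 0.00912). PRDX2, a peroxiredoxin, had -0.33 (SE 0.07), and the superoxide dismutases SOD2 and SOD3 had -0.45 (SE 0.13) and -0.44 (SE 0.07). SOD3 was above background on 1 array in GV3 and 2 in GV0. The glutathione transferases GSTP1 (-0.49, SE 0.13) and MGST3 (-0.57, SE 0.16) fell beside GSTA1. Those that rose were GPX3 and GCLC, the catalytic subunit that begins glutathione synthesis, at 0.88, 1.17, 0.76 and 1.07 (mean 0.97, SE 0.17).

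This count was among the least stable. Without array 1, 2, 3 or 4 of GV3, 5, 5, 5 and 4 of the antioxidant genes fell, and with median spot signals 2 fell and 2 rose. With the fixed replicate block 14 fell and 7 rose, where 16.2% of all genes fell and 14.9% rose. With the random block 8 fell and 3 rose. TXNRD1, TXNRD2, TXN2 and SOD3 passed without each array. The calls of GSTP1, PRDX2 and TXNIP were each lost without 3 of the arrays (adjusted p up to 0.11, 0.0751 and 0.0752). Those of GSTA1, MGST3 and SOD2 were lost without any 1 of the 4 (up to 0.147). When arrays were centred on their median in place of loess, 4 fell and 3 rose, and the median of the list was 0.10.

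Autophagy and lysosome genes rose where they passed. Of 32 measured, 5 rose (15.6%, against 4.36% of all genes), 0 fell (13 had an unadjusted p under 0.05), and the median was 0.18. GABARAPL1, an ATG8 protein of the autophagosome membrane, read 0.89, 1.11, 2.18 and 2.20 (mean 1.60, SE 0.28, adjusted p = 0.00543). LAMP2, a lysosomal membrane protein, read 0.54, 1.09, 0.52 and 0.83 (mean 0.74, SE 0.13). The cholesterol exporters of the lysosome NPC1 (0.80, SE 0.22) and NPC2 (0.40, SE 0.10) and the protease CTSZ (0.89, SE 0.23) rose too. Array 3 or array 4 was highest in GABARAPL1, NPC1 and CTSZ, and array 2 in LAMP2 and NPC2. GABARAPL1 and LAMP2 passed without each GV3 array. NPC2 and CTSZ were lost without any 1 of them and NPC1 without array 2, 3 or 4 (adjusted p up to 0.155), which left 3, 2, 3 and 2 genes of the list higher. With the fixed replicate block 11 rose and 3 fell, where 14.9% of all genes rose and 16.2% fell. With the random block 8 rose and 1 fell.

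Few antigen presentation and interferon genes passed. Of 27 interferon response genes 3 rose (11.1%) and 1 fell (3.70%), against 4.36% and 6.78% of all genes, with a median of 0.29. IFIH1, a sensor of double-stranded RNA, read 1.27, 1.10, 0.55 and 1.42 (mean 1.09, SE 0.25). B2M, the light chain of MHC class I, read 0.44, 1.53, 0.84 and 1.51 (mean 1.08, SE 0.32). All 4 arrays were above 0 in both genes. The other probe of B2M, above background in both dyes on all 4 arrays, was at 0.04 (adjusted p = 0.777) with arrays on both sides of 0, so the rise rests on 1 probe. The peptide transporter TAP1 had 0.33 (SE 0.09), and USP18, which dampens interferon signals, had -0.27 (SE 0.07). Of 35 proteasome subunits 2 rose (5.71%, near the 4.36% of all genes) and 0 fell. The 2 were the immunoproteasome subunit PSMB8 (0.42, SE 0.10) and the activator PSME1 (0.51, SE 0.12). The list median was 0.15. Without 1 GV3 array, 0 to 1 interferon genes and 0 to 1 proteasome subunits rose. With median spot signals 1 interferon gene and 0 proteasome subunits rose. Each of the calls above was lost without at least 2 arrays (adjusted p up to 0.175).

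Genes of gonadotropin response, steroid synthesis and cumulus expansion changed little as groups. Of 23 genes of gonadotropin receptors, inhibins and granulosa differentiation, 0 rose and 3 fell (13.0%, against 6.78% of all genes), with a median of 0.01. RGS2, which quenches G protein signals, read -1.48, -1.26, -1.98 and -2.20 (mean -1.73, SE 0.36). WT1, a transcription factor of immature granulosa cells, read -0.23, -0.87, -1.24 and -1.16 (mean -0.88, SE 0.19). NR5A1, the steroidogenic factor SF-1, read -0.79, -0.64, -0.34 and -0.24 (mean -0.50, SE 0.09). Every array was below 0 in all 3. FSHR, the FSH receptor, read 0.68, -0.05, 0.37 and -0.39 (mean 0.15, SE 0.17, adjusted p = 0.612), with arrays on both sides of 0. INHA (0.69, SE 0.22, adjusted p = 0.0655), INHBA (0.42, SE 0.17) and AMH (0.17, SE 0.33), which encode inhibin subunits and anti-Müllerian hormone, did not pass, and LHCGR had no probe past the filter on dim signals. RGS2 was lost without array 3 or 4 (adjusted p up to 0.0637) and WT1 without array 2, 3 or 4 (up to 0.077).

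Of 22 genes of steroid synthesis and cholesterol supply, 1 was higher and 1 lower (4.5% each, median -0.12). Of all genes 4.36% were higher and 6.78% lower. NR0B1, the repressor DAX-1 that opposes SF-1, read -0.84, -1.53, -1.05 and -1.25 (mean -1.16, SE 0.16, adjusted p = 0.00173). FDX1, the electron donor of the side chain cleavage enzyme, read 1.14, 1.39, 0.15 and 0.14 (mean 0.70, SE 0.19), with arrays 1 and 2 apart from arrays 3 and 4, and its call was lost without array 1 or 2 (adjusted p up to 0.15). STAR, which carries cholesterol into mitochondria, had 0.16 (SE 0.56) and aromatase CYP19A1 -0.35 (SE 0.25), neither of which passed. CYP19A1 read 0.96 on array 2 and between -0.97 and -0.62 on the others. Without array 2 it was -0.78 and passed (adjusted p = 0.00849), so that array decided whether it passed. Its other probes were at 0.05 and -0.08.

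Of 21 genes of cumulus expansion and EGF-like factors, 1 rose and 1 fell (4.76% each, against 4.36% and 6.78% of all genes, median -0.03). PGR, the nuclear progesterone receptor, read 1.27, 0.88, 0.59 and 0.94 (mean 0.92, SE 0.26), and PGRMC1, a membrane component of progesterone signalling, -0.65, -0.15, -0.72 and -0.76 (mean -0.57, SE 0.14). PGR passed in none of the fits that left out 1 GV3 array (adjusted p up to 0.135), and PGRMC1 was lost without array 1, 3 or 4 (up to 0.116). HAS2, which makes the hyaluronan of the expanded matrix, read 0.55, 0.92, 1.43 and 0.75 and narrowly missed the threshold (mean 0.91, SE 0.28, adjusted p = 0.059). GREM1, a BMP antagonist of expanding cumulus cells, had -0.39 (SE 0.13, adjusted p = 0.0684), PTX3, which crosslinks that matrix, -0.03 (SE 0.29), TNFAIP6 0.33 (SE 0.26) and PTGS2 -0.28 (SE 0.17). The GV3 signal of PTGS2 was not well above background on any array.

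Signalling pathways held a few strong changes among many genes that did not pass. In TGF-beta and BMP signalling 3 of 29 genes rose (10.3%) and 2 fell (6.90%), against 4.36% and 6.78% of all genes, with a median of 0.08. Beside ID3, its relative ID1 fell, at -1.55, -1.03, -0.70 and -0.99 (mean -1.06, SE 0.21), with GV3 above background on 1 array. The extracellular BMP antagonists NOG, at 0.65, 1.03, 0.97 and 1.08 (mean 0.93, SE 0.22), and CHRD (0.72, SE 0.20) rose, as did SKIL, a repressor of SMAD transcription (0.90, SE 0.22). ID1 and ID3 passed without each GV3 array, whereas NOG was lost without array 2, 3 or 4 and SKIL and CHRD without any 1 (adjusted p up to 0.152), which left 0 to 1 genes higher.

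Among 32 WNT, Notch and Hedgehog genes 0 rose and 3 fell (9.4%, against 6.78% of all genes). The median was -0.03, and 7 had an unadjusted p under 0.05. IHH, the hedgehog ligand that granulosa cells send to the theca, read -0.98, -0.61, -0.70 and -1.22 (mean -0.88, SE 0.10, adjusted p = 0.00072). HES1, a target of Notch, read -0.41, -0.53, -0.67 and -0.45 (mean -0.52, SE 0.06). Both were lower on every array and passed without each array. DVL1, a mediator of WNT receptors, had -0.33 (SE 0.10) with GV3 above background on 1 array, and was lost without array 1, 2 or 4 (adjusted p up to 0.177). Among 24 genes of gap junctions and oocyte contact, CTNNB1, which encodes beta-catenin, rose to 0.80 (SE 0.18) and GJA5, a connexin, fell to -1.11 (SE 0.32). Each is 4.17% of the list, against 4.36% of all genes higher and 6.78% lower. The main cumulus connexin gene GJA1 read 0.57, 0.52, 0.14 and 0.24 (mean 0.37, SE 0.12, adjusted p = 0.0771), and its other probe passed (0.50, SE 0.13). CTNNB1 was lost without array 2 or 4 (up to 0.0768) and GJA5 without array 2, 3 or 4 (up to 0.173).

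In the hypoxia and angiogenesis list, 3 of 25 genes rose (12.0%) and 1 fell (4.0%), against 4.36% and 6.78% of all genes, with a median of 0.02. ANGPT2 and ANGPTL6 lead the 2 directions. ADM, the vasodilator adrenomedullin, read 0.62, 0.39, 0.98 and 0.73 (mean 0.68, SE 0.13) and ARNT, the partner of hypoxia-inducible factors, had 0.23 (SE 0.06), lost without array 2, 3 or 4 (adjusted p up to 0.136). IGFBP4, which binds insulin-like growth factors, rose by 0.54 (SE 0.13). It was the 1 gene of 14 in the IGF system that rose (7.14%, against 4.36% of all genes), and 0 fell. It was lost without array 1, 2 or 3 (up to 0.0943).

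Among 41 extracellular matrix genes, 3 rose and 3 fell (7.3% each, against 4.36% and 6.78% of all genes, median 0.07). FBN1, the microfibril protein fibrillin, read -1.74, -1.48, -2.44 and -1.02 (mean -1.67, SE 0.29, adjusted p = 0.00504), the largest decrease of the list. ELN, which encodes elastin, had -0.36 (SE 0.06) and TIMP3, an inhibitor of matrix proteases, -0.71 (SE 0.18). COL6A2 rose by 0.81 (SE 0.17). COL6A3 (0.24, SE 0.06) passed with dim signals. LOX, a crosslinking enzyme, was at least 1.255-fold higher in GV3 (adjusted p = 0.00879), being above background on 2 GV3 arrays and 0 GV0 arrays. FBN1, ELN and LOX passed without each GV3 array. COL6A2 was lost without array 2 or 3 (adjusted p up to 0.0631), and TIMP3 and COL6A3 without any 1 (up to 0.13).

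Few genes of the metabolic and biosynthetic lists passed, and the count for some of them depended on the scaling. Of 74 genes of oxidative phosphorylation 4 fell (5.41%, against 6.78% of all genes) and 0 rose, with a median of -0.07. The complex I subunits NDUFB7 (-0.53, SE 0.11), NDUFS7 (-0.73, SE 0.18), NDUFA8 (-0.40, SE 0.09) and NDUFS3 (-0.44, SE 0.11) were the ones that fell, each on all 4 arrays. Each lost its call without at least 2 of the arrays (adjusted p up to 0.124). Of 62 cytosolic ribosomal protein genes 1 rose (1.61%, against 4.36% of all genes), RPL30 at 0.62 (SE 0.17), and 0 fell, with a median of -0.02. With arrays centred on their median in place of loess, 39 of the 62 ribosomal genes rose and 0 fell (median 0.48). Under the same centring 6 genes of oxidative phosphorylation rose and 0 fell (median 0.23), so no direction is given for either list. Of 25 genes of glycolysis and lactate handling 0 rose and 1 fell (4.0%), PDHA1, a subunit of pyruvate dehydrogenase, at -0.33 (SE 0.09). With median centring 2 rose and 0 fell. INSIG2, which retains the sterol sensor in the endoplasmic reticulum, was the 1 of 28 genes of cholesterol and fatty acid synthesis that rose (3.57%). It read 2.23, 0.55, 0.44 and 0.54 (mean 0.94, SE 0.27), with array 1 apart. The calls of PDHA1 and INSIG2 were lost without any 1 array, and that of RPL30 without array 2, 3 or 4 (up to 0.179).

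Of 24 apoptosis and atresia genes 1 rose (4.2%) and 2 fell (8.3%), near the 4.36% and 6.78% of all genes (median 0.04). APAF1, the core of the apoptosome, read 1.36, 1.74, 0.50 and 1.00 (mean 1.15, SE 0.25), BCL2, which restrains mitochondrial apoptosis, had -0.45 (SE 0.07) and FADD, which couples death receptors to caspases, -0.47 (SE 0.11). BCL2 passed without each array. APAF1 was lost without array 1 or 2 (adjusted p up to 0.0663) and FADD without array 1, 2 or 4 (up to 0.0946). Of 37 chromatin genes 1 rose, YEATS4, and 4 fell (10.8%, against 6.78% of all genes), with a median of 0.01. H2AX, the histone variant phosphorylated at DNA breaks, read -1.13, -0.83, -1.19 and -0.40 (mean -0.89, SE 0.13, adjusted p = 0.00264) and passed without each array. HMGB1, a chromatin architectural protein, had -0.58 (SE 0.14), EED, a Polycomb subunit, -0.49 (SE 0.12), and the DNA methyltransferase DNMT3B -0.38 (SE 0.11). EED and HMGB1 were lost without array 1, 3 or 4 and DNMT3B without any 1 (up to 0.153).

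**Figure D5:**
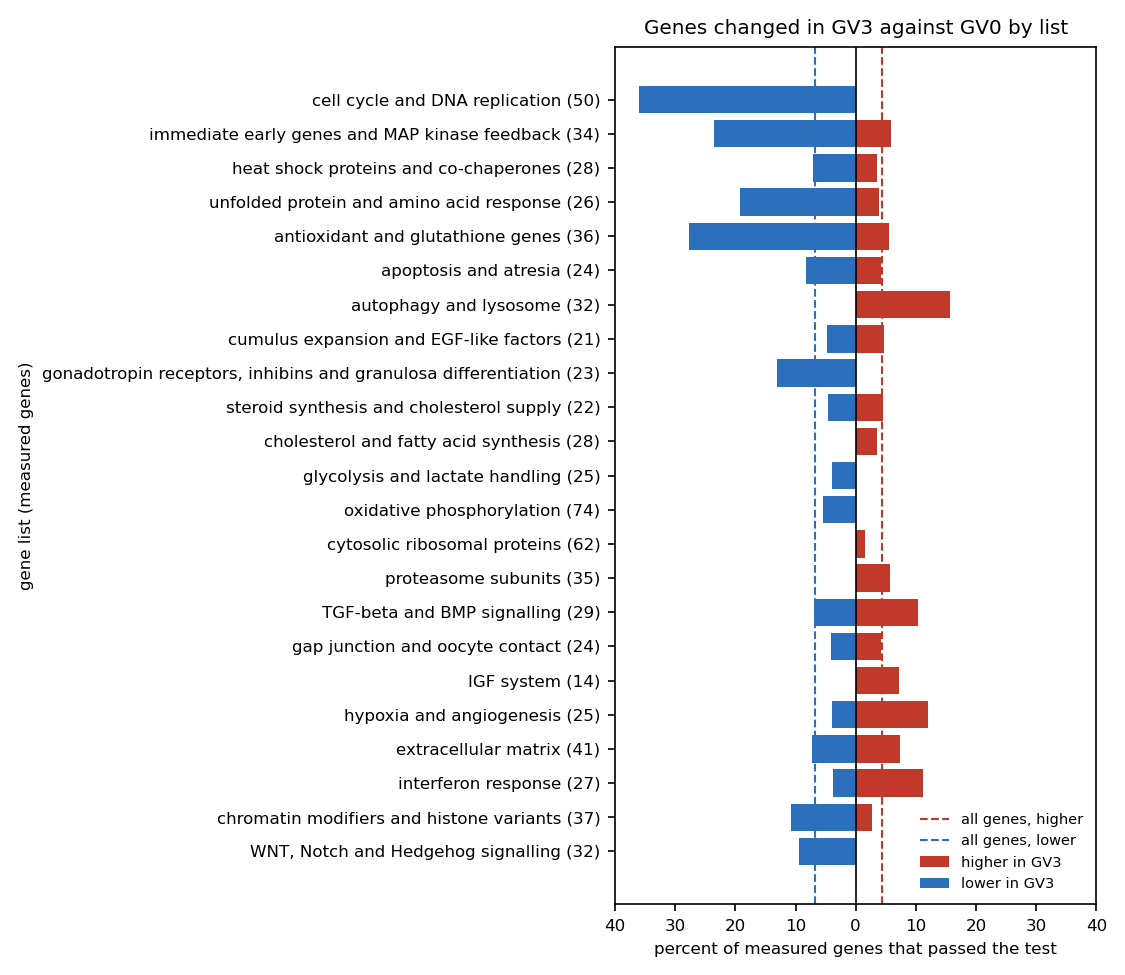
Percent of the measured genes of each of 23 lists that passed the test (horizontal axis), lower in GV3 to the left and higher to the right, with the number of measured genes in parentheses. Dashed lines mark 6.78% and 4.36%, the shares of all genes. The cell cycle (36.0%), antioxidant (27.8%) and immediate early (23.5%) lists reach farthest to the left, and the autophagy and lysosome list (15.6%) farthest to the right.

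The labelled cell type was checked against its markers. All 14 cumulus and granulosa identity markers were measured, 12 with both dyes above background on all 4 GV3 arrays, and their summed signals lay between 161198 and 172262 in GV3 and between 110919 and 157852 in GV0. These sums, here and below, are of mean pixel intensities, not scaled between the dyes. GATM, an enzyme of creatine synthesis, read -1.94, -2.87, -0.80 and -1.19 (mean -1.70, SE 0.35) and was the 1 identity marker that passed. It was lost without array 2 (adjusted p = 0.0531). Its share of the identity list, 7.14%, is near the 6.78% of all genes that fell. FOXL2, a defining factor of granulosa cells, had 0.01. In the mural granulosa list, 2 of 9 genes passed, GPX3 upward and the brightest probe of CD36, a fatty acid transporter, downward (-0.55, SE 0.09). Each is 11.1% of the list, against 4.36% of all genes higher and 6.78% lower. The 2 other probes of CD36 passed in the opposite direction, at 1.30 (SE 0.30) and 0.74 (SE 0.15), so no direction is given for this gene.

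Markers of other cell types were at lower signals, and few of them passed. Of 18 theca and stroma markers 0 passed (3 had an unadjusted p under 0.05). Their summed signals were 16176 to 20697 in GV3 and 19477 to 20811 in GV0. Of 13 endothelial markers EGFL7 (-0.46, SE 0.06) and ESAM (-0.21, SE 0.05) fell (15.4%) and ERG (0.19, SE 0.05) rose (7.69%). Of all genes 6.78% fell and 4.36% rose. The endothelial sums were 2499 to 2979 in GV3 and 3846 to 4722 in GV0. Of 13 leukocyte markers CD68, a lysosomal glycoprotein of macrophages, rose, at 0.26, 1.28, 1.48 and 1.84 (mean 1.22, SE 0.24), while the pan-leukocyte gene PTPRC had -0.14. The dim T cell gene CD3E rose too, at 0.24 (SE 0.06). So 2 of the 13 rose (15.4%) and 0 fell, against 4.36% and 6.78% of all genes. The call of CD68 was lost without array 4 (adjusted p = 0.0516), those of CD3E and ERG without any 1 array (up to 0.137) and that of ESAM without array 1, 3 or 4 (up to 0.114). The leukocyte sums were 2966 to 6415 in GV3 and 4348 to 9829 in GV0, and whether such cells took part in the rise of lysosomal genes was not tested.

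Of 9 surface epithelium markers 3 fell (33.3%), KRT8, WT1 and KRT7 (-0.22, SE 0.05), and 0 rose. Of all genes 6.78% fell and 4.36% rose. Without 1 GV3 array 0 to 2 fell, KRT7 being lost without any 1 of the 4 (adjusted p up to 0.0966). The list's summed signals were 6497 to 8452 in GV3 and 15864 to 41542 in GV0. Most of each sum was KRT8, chosen for its large decrease, with 4880 to 6533 in GV3 and 13130 to 38270 in GV0. KRT18, the partner of KRT8, had -0.07, and EPCAM -0.12. Whether epithelial cells took part in the decreases of KRT8 and WFDC2 was not tested. Of 18 oocyte markers MOS, a kinase of meiosis, read -1.23, -1.26, -0.73 and -1.11 (mean -1.08, SE 0.09, adjusted p = 0.000138), and SOHLH1 (-0.26, SE 0.07) fell. ZP4, above background on 0 GV0 arrays, was at least 1.255-fold higher (adjusted p = 0.0342). So 2 oocyte markers fell (11.1%) and 1 rose (5.56%), against 6.78% and 4.36% of all genes. ZP4 was lost without any 1 array and SOHLH1 without array 2, 3 or 4 (adjusted p up to 0.13). BMP15 had 0.03 and the egg coat gene ZP3 -0.09. Of 5 red blood cell markers 0 passed, and 0 had an unadjusted p under 0.05.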

How the data were processed

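The ratios come from the 4 GV3 arrays and their error from all 12. Per the file headers, the deposited scanner tables give every spot's pixel intensity, as mean and as median, in both dyes and a flag of another kind (0 or 1, rule not stated by the authors). The deposited series matrix holds log2 ratios, which matched loess-normalised median signals (r = 1 on each array). It served as an alternative.

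Mean intensities of spots with flag 0 were background-corrected with normexp (offset 50) and normalised by loess within each array in limma 3.58.1 (R 4.3.3, statmod 1.5.0). Probes were kept where a dye exceeded the mean plus 2 SD of the 153 negative control spots on at least 3 of 4 arrays of a stage (35891 of 43794). Of 15229 gene symbols 14114 were current in RefSeq, 982 were renamed and 133 did not match. A gene is its brightest kept probe. Genes with several probes can differ between them: 408 of the genes that passed had 611 other probes, of which 445 had the same sign, 109 passed the same way and 21 the opposite way. Coordinates are not used here, since the array's genome build is not given in the sources used here. The number of arrays limits the precision.

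One limma model held a coefficient for each stage (9 residual degrees of freedom). Each was tested against 0, two-sided, with Benjamini-Hochberg adjustment over the kept probes. On simulated data with 35891 probes, the test recovered 74.9% of probes changed by a log2 of 1 in GV3 against GV0. It recovered 95.5% of those changed by 2. In the same draws with every effect removed, at most 1 probe passed, and a median of 5.77% had an unadjusted p under 0.05. Each draw changed 200 probes, with noise independent between probes, no dye preference and no normalisation step. How many calls in the real ratios come from a dye preference was therefore not tested. The area number pairs the arrays, as seen in the data: Cy3 signals of the same area correlated at r between 0.987 and 0.997 across slides, those of other areas between 0.93 and 0.974, and deviations from stage means between 0.493 and 0.736 in all 12 same-area pairs. The residuals of the stages are therefore not independent.

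The gene lists and the rule for named genes were chosen with earlier results of these data known. The rule named the 15 genes that rose most and the 15 that fell most with both dyes above background and the same sign on all 4 arrays, 3 genes a direction with 1 dye below background, the 5 genes with the lowest adjusted p in each list, and 21 anchor genes, 126 in all. Other genes were named after their values were seen, among them the further members of the cell cycle, immediate early, antioxidant and marker lists. The roles of the cell cycle genes were assigned afterwards too. Alternatives covered background correction, signal type, scaling, filters, array weights, replicate blocks and arrays left out. Bounds set the brighter dye's mean against the higher, per array, of the dim probe's own signal and the lowest signal above background.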

Additional observations from a re-analysis of the deposited data

Results flagged for a closer look

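Single arrays stood apart from the other 3 GV3 arrays in 6 of the named genes, by Dixon's criterion, which chance meets in about 1 in 20 groups of 4. Of 162 sets of 4 values tested, 9 met it, about the number that chance gives. BAG3 was 0.16 on array 1 and between 1.79 and 1.98 on the others. INSIG2 was 2.23 on array 1 and between 0.44 and 0.55 on the others. SHMT2 was -0.454 on array 2, where the others lay between -0.88 and -0.81. On array 4, SKIL was 1.39 against 0.69 to 0.78, USP18 was -0.47 against -0.22 to -0.19, and KRT7 was -0.298 against -0.20 to -0.18.

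Medians of gene lists stood apart on array 1 in the same way. The median of the immediate early list was -0.359 there and between -0.26 and -0.25 on the other arrays. The median of the 74 genes of oxidative phosphorylation was -0.432 on array 1 and between 0.05 and 0.10 on the others. The standard deviation of all log2 ratios was 0.4723 on array 4 and between 0.4423 and 0.4473 on the others.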

How the results depend on the processing

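The count of genes that passed in GV3 against GV0, 1495 genes and 4412 probes, moved by over 1.5 times under these settings. With median spot signals it was 365 genes and 798 probes, with the series matrix 355 and 758, with both dyes required above background on all GV3 arrays 768 and 1758, on the 4 GV3 arrays alone 0 and 0, and with the fixed replicate block for the paired areas 4172 and 10895. A fold of at least 1.5 left 573 genes and 1263 probes, and an adjusted p under 0.01 left 486 and 1431. Leaving out 1 GV3 array gave 661 to 924 genes and 1925 to 2687 probes, and leaving out the same area on all slides gave 518 to 1045 genes and 1426 to 2760 probes (702 genes and 1968 probes without area 3, 571 and 1609 without area 4). The fewer samples or probes tested are part of these settings by construction, and otherwise the cause was not tested. Without background correction (1470 genes), with normexp fitted on all spots (1852), with median centring (1770, of which 812 higher and 958 lower), without the filter (1566), with array weights (1633), with the random replicate block (1494) and with the mean over probes (1320), counts stayed within 1.5 times. GV3 minus GV1 and GV3 minus GV2 had 0 probes under each setting that included all stages, which leaves out the fit on the 4 GV3 arrays alone.

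Of the 114 named genes that passed, 113 kept their sign under every alternative, and 1, CD36, turned to 0.49 as the mean over its probes. Among named genes that did not pass, FSHR (-0.023 to 0.33), STAR (-0.15 to 0.38) and AMH (-0.0061 to 0.34) turned sign over the fits that left out 1 GV3 array or area, the lowest without array 1. PTX3 turned to 0.022 with median signals, 0.0022 with the series matrix, 0.01 with array weights, 0.1 without array 1 and 0.2 without array 2, and lay between -0.3 and 0.2 over the arrays left out. Median spot signals lost 55 of the named calls and added 1, and the series matrix ratios lost 56 and added 1. In limma on median signals PLA2G7 (adjusted p = 0.054) and BAG3 (0.067) were among those lost. The fixed replicate block lost 0 of the named calls and added 5. The random block lost 6, those of STIP1, FDX1, PDHA1, ARNT, DVL1 and CD3E, and added 2, those of INHA and GREM1, and 1256 of the 1495 genes passed with it.

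The limits are those of 4 pools on 1 slide, with 1 dye orientation and amplified RNA. For genes above background in only 1 dye, the ratio understates the difference. For genes above background in neither dye, 12 of those that passed, both signals are at background level and the size of a difference is not known.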

Other observations

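Some of the largest ratios belong to genes whose signal exceeded the negative controls on only some arrays, or whose arrays differed in sign, which the rule for named genes leaves out. They were picked after their values were seen. DAB2, an endocytic adaptor, read -0.85, -3.42, -1.79 and -1.58 (mean -1.91, SE 0.47). COL4A5, a basement membrane collagen, read 0.21, -2.36, -3.30 and -3.79 (mean -2.31, SE 0.65), so that array 1 was not lower. In the other direction the lysozyme gene LYSB read 1.5, 2.89, 2.33 and 3.02 (mean 2.43, SE 0.67) and its near copy LYZ2 1.08, 1.97, 1.68 and 1.96 (mean 1.67, SE 0.46). Probes of such copies may share target RNA, so each value is uncertain. PELI1, a ubiquitin ligase of innate immune signalling, read 1.05, 2.61, 1.5 and 1.34 (mean 1.62, SE 0.19, adjusted p = 0.00072), and ENAH, a regulator of actin filaments, read 1.92, 2.13, 0.96 and 1.08 (mean 1.52, SE 0.26).

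The arrays also differed in level over whole lists. The median of 35 proteasome subunits was -0.18 on array 1, 0.46 on array 2, 0.17 on array 3 and 0.23 on array 4. That of 28 genes of cholesterol and fatty acid synthesis was -0.43, -0.10, -0.07 and 0.07 in the same order. For AXL, a receptor tyrosine kinase, array 1 read 0.58 and arrays 2 to 4 read -4.66, -1.63 and -4.17, and the gene did not pass (mean -2.47, SE 0.99, adjusted p = 0.128).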
